A study of Mus musculus with 3 samples.

Results

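The genes described here encode the digestive enzymes and membrane proteins of the lysosome. They form a list of 39 named genes: proteases of the cathepsin family and legumain, glycosidases, sulfatases, phosphatases, lipid hydrolases with their helper proteins, membrane proteins of the organelle, and the transcription factor gene Tfeb. Members were found by matching each probe's platform gene symbol, current or older, to the list, and where a gene had several probes its brightest, by the mean of all 3 arrays, was used. All 39 were measured, by 45 probes, among 17742 named genes in all. Messenger RNA was measured on 1-colour arrays in myeloid leukaemia cells of the mouse strain BXH-2, with bone marrow as the labelled tissue. The sensitive group held 2 arrays of the line B117P, and the resistant group held 1 array of B117HS. B117HS was selected from B117P in about 10 weeks of rising cytarabine (Ara-C) and tolerated about 10 times as much of the drug by IC50, per the labels. B117HS is thus 1 derived line on 1 array.

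Lysosomes are acidic organelles in which proteins, glycans and lipids from endocytosis, phagocytosis and autophagy are broken down. Most of their soluble enzymes receive a mannose 6-phosphate tag in the Golgi and are carried by tag receptors, while transcription factors of the family of Tfeb, Tfe3, Mitf and Tfec bind E-box sequences in front of many lysosomal genes. Monocytes and macrophages are known for a large lysosomal compartment, and granulocyte precursors store related proteases in their granules.

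Values are intensities as the authors deposited them, and differences are resistant minus sensitive on the scale log2(intensity + 50), which understates the change of dim probes. A call required a limma p, adjusted over all genes by Benjamini-Hochberg, under 0.05, and the resistant array had to differ from both sensitive arrays by 1 or more on the same side. The resistant array was dimmer: over 6167 bright probes its log2 ratio to the sensitive mean had a median of -0.77, so each call was repeated after the arrays were scaled to remove that shift. The scaling moved the median difference of all genes from -0.33 to -0.06. Only a gene that met the call on both scales is said to have risen or fallen, and the differences given are those as deposited unless the text says scaled. The scaling multiplied the resistant array by 1.71. It could therefore hardly end a higher call made as deposited, and the second scale mainly screened the lower calls. The labels name no separate cultures, so the p-values reflect the spread between 2 arrays of unknown relation, and the single resistant array was taken to vary as they did. The number of arrays limits the precision. Adjusted p-values printed here are those of the fit as deposited unless another setting is named. In the scaled fit the prior degrees of freedom were 2.54, against 11.0 as deposited. There the adjusted p-values of the members called on both scales were all larger, by several orders of magnitude for Ctsk, Lgmn and Hexa. Of the myeloid markers Ptprc, Mpo and Prtn3 read at least 6725 units on every array. The 7 measured of 8 myeloid markers summed to 106374, 117129 and 109977 units on sensitive replicates 1 and 2 and the resistant array, mostly from Mpo and Prtn3. In that list Spi1 fell, Itgam was called lower as deposited, Cebpa was called higher after scaling, and Ptprc, Mpo, Prtn3 and Cd33 were not called on either scale. The T cell markers summed to 318, 281 and 118 units in the same order, mostly from Cd3e at 272, 223 and 90.2 units. Cd4 and Cd8a read near 0. The 3 measured B cell markers summed to 324, 335 and 129, mostly from Cd79a at 288, 257 and 94.9 units. Cd79a was called lower as deposited but not after scaling, and Ms4a1 read near 0. Klf1, the measured erythroid marker, read 34.2 to 54.7 units. Fibroblast and endothelial markers summed to 1077, 1145 and 1619 units, mostly from Pecam1, which myeloid cells also carry. Pecam1 was called higher after scaling (1.76) but not as deposited (1.01). Pdgfrb, 1 of these 5, fell, but was not called after quantile normalization (-1.34).

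The resistant cells carried more transcript of many lysosomal genes and much less of a few. Cathepsin K (Ctsk), alpha-galactosidase A (Gla), tripeptidyl peptidase (Tpp1), Lamp2, cathepsin B (Ctsb) and cathepsin D (Ctsd) rose most, whereas legumain (Lgmn), cathepsin S (Ctss), beta-hexosaminidase alpha (Hexa) and cathepsin H (Ctsh) fell, each by more than 3 log2 units as deposited. Of 39 members, 12 rose (30.8%), where 5.21% of all genes did, and 4 fell (10.3%), where 8.35% of all genes did. As deposited the counts were 12 higher against a background of 5.23% and 5 lower against 18.5%, and after scaling they were 19 higher against 9.86% and 4 lower against 8.45%. The share of members called higher was thus above that of all genes on both scales, while the share called lower was nearer to the background. The median difference of the members was 0.52 as deposited and 1.20 after scaling, and it was 0.33 without sensitive replicate 1. The median over all genes was -0.33 and -0.06 on the respective scales. Since the members were chosen with earlier results of these arrays known, the list as a whole was not tested.

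**Figure D1:**
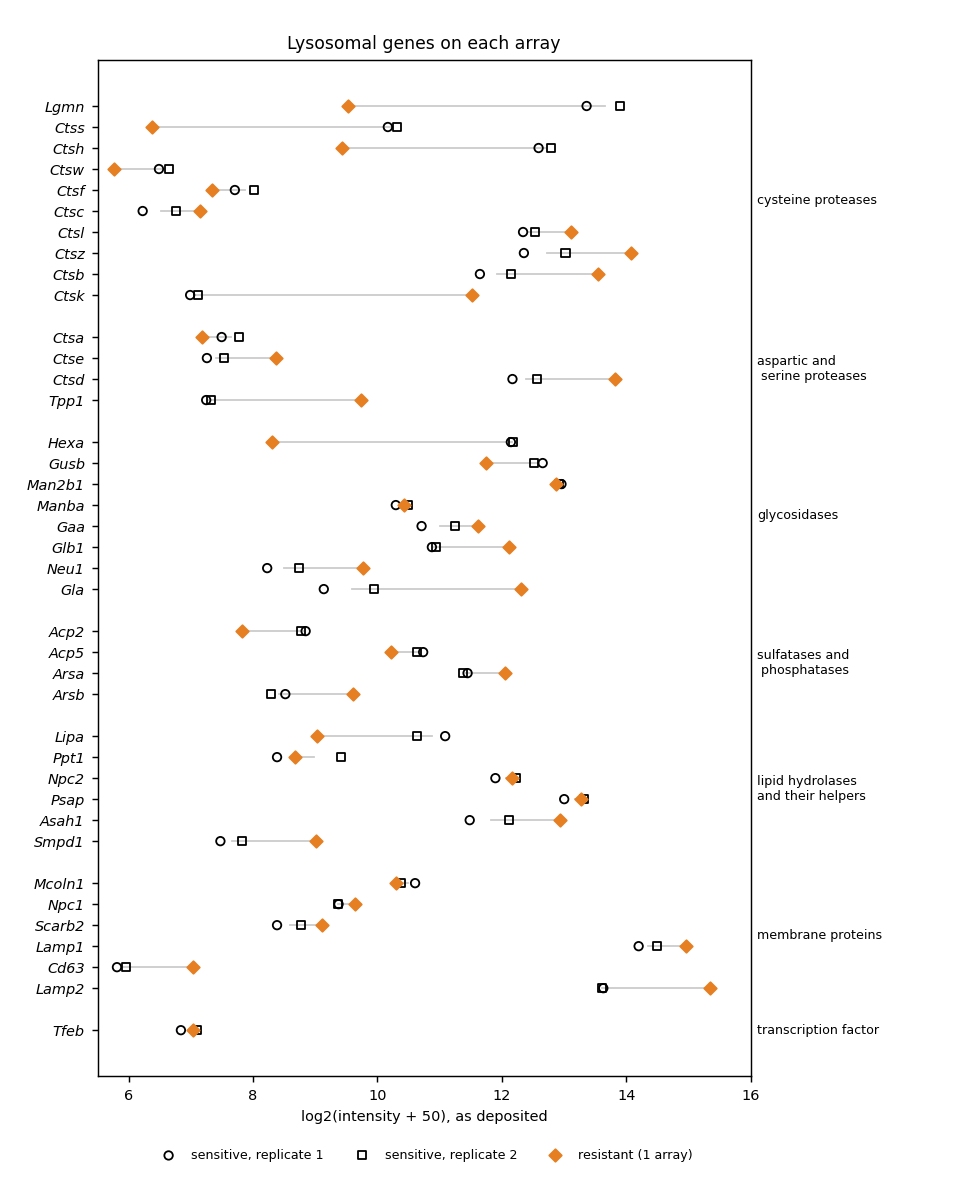
Each row is 1 lysosomal gene, grouped by role, with log2(intensity + 50) as deposited on the x axis; open circles and squares are the sensitive arrays, the filled diamond is the resistant array, and the grey line joins the level of the sensitive mean to the resistant level. The resistant array lay above both sensitive arrays for 21 genes, below both for 13 and between them for 5.

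The members spread widely, from a difference of -4.10 to 4.47, with a standard deviation across genes of 1.77 against 1.05 over all genes. The resistant array read above both sensitive arrays for 21 members, where 20.8% of all genes did, and below both for 13, where 68.4% of all genes did. The sensitive arrays themselves were within a log2 difference of 0.5 for 31 members, and 1 member, Ppt1, differed between them by more than 1. Sensitive replicate 2 was the higher of the pair for 29 of 39 members (74.4%) and for 65.0% of all genes, with a median of 0.20 for the members and 0.08 for all genes.

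**Figure D2:**
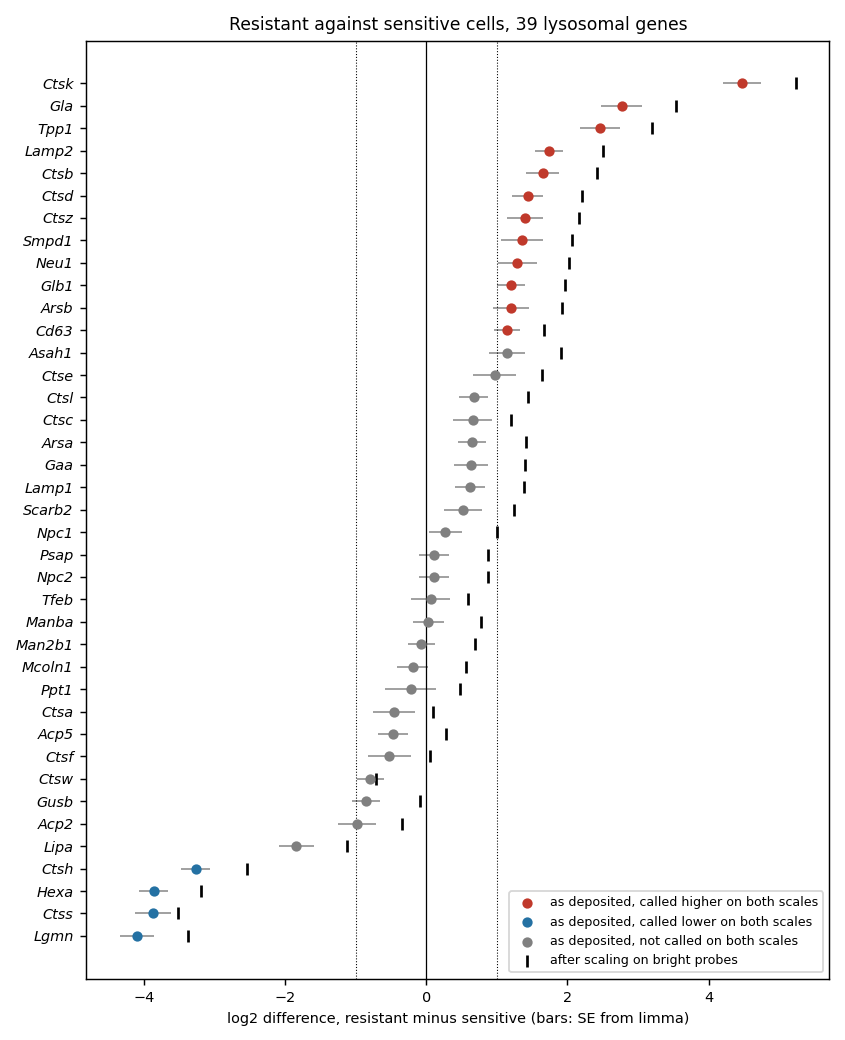
The x axis is the log2 difference, resistant minus sensitive, and each row is 1 of the 39 genes in order of that difference; dots are values as deposited with the SE of limma's difference as bars, black ticks are values after scaling on bright probes, and dotted lines mark differences of -1 and 1. Red dots mark the 12 genes that rose and blue dots the 4 that fell, from Lgmn at -4.10 to Ctsk at 4.47.

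The cysteine proteases held the largest changes in both directions: 3 of 10 rose and 3 fell. Ctsk, a collagen-degrading cathepsin best known from osteoclasts, read 77.0 and 88.4 units on the sensitive arrays, against 2893 in resistant cells. The sensitive mean was 82.7 ± 8.02 (SD, n = 2), not far above the medians of those arrays (58.4 and 72.5 units), so no fold is given. The groups lay far apart, and the log2 difference was 4.47 (SE 0.26, limma adjusted p = 1.40e-07). Ctss, which cuts the invariant chain of MHC class II, went the other way, from 1100 and 1228 units to 32.7. The resistant reading lay near that array's median of 24.9 units and without a background flag may not be above background, so no fold is given, and the difference was -3.87 (SE 0.25, adjusted p = 2.64e-07). These genes are direct neighbours on mouse chromosome 3, with 0 annotated protein-coding genes between them in GRCm38.p6, and they moved in opposite directions on both scales.

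Lgmn, an asparaginyl endopeptidase that trims several cathepsins to their mature forms, read 10474 and 15214 units in sensitive cells, against 688 in the resistant line. The sensitive arrays differed from each other here, but both stood more than an order of magnitude above the resistant array, and the difference was -4.10 (SE 0.24, limma adjusted p = 1.12e-07). Ctsh, an aminopeptidase, fell from 6115 and 7020 to 636 units, a difference of -3.27 (adjusted p = 2.04e-07). Ctsb, which acts as an endopeptidase and as a carboxydipeptidase, rose from 3156 and 4475 to 11903 units, a difference of 1.65 (SE 0.23, adjusted p = 1.19e-04). Its dimmer probe also read highest on the resistant array, at 85.7 and 112 against 397 units. The carboxypeptidase gene Ctsz read 5183, 8268 and 17292 units and rose by 1.39 (adjusted p = 8.72e-04). After quantile normalization the difference of Ctsz was 1.50 and its call was lost on a limma adjusted p of 0.081. Over the alternatives with a test that p ranged from 2.04e-13 (centred) to 0.112 (floor of 50 units). The prior degrees of freedom of these 2 fits were 81.1 and 1.18, so their p-values are not on a like footing.

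The remaining cysteine proteases moved less. Ctsl, a widely expressed endopeptidase, read 5135 and 5893 units in sensitive cells, against 8790 in the resistant line. The resistant array was the highest, but the difference of 0.67 (SE 0.20) was short of the size asked, and Ctsl was called higher after scaling but not as deposited (1.44). Its other probe read 79.5, 81.8 and 96.4 units. Ctsc, the dipeptidyl peptidase that activates granule serine proteases, read 24.8, 58.0 and 91.8 units, and Ctsf read 159, 210 and 112. Ctsw, a cathepsin of cytotoxic lymphocytes, read 39.8 and 50.1 units in sensitive cells, against 4.67 in the resistant line, close to 0. None of these 3 was called on either scale, and the sign of Ctsf turned from -0.52 as deposited to 0.05 after scaling.

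Among the aspartic and serine proteases, 2 of 4 rose and 0 fell. Ctsd, the main aspartic protease of the lysosome, read 4557 and 6035 units in sensitive cells, against 14324 in the resistant line, 2.70 times the sensitive mean (log2 difference 1.44, SE 0.22, limma adjusted p = 2.20e-04). Tpp1, which removes tripeptides from protein ends, was tight on the sensitive arrays at 102 and 109 units and read 804 in resistant cells, a rise of 2.46 (SE 0.28, adjusted p = 2.63e-05). For both genes the resistant value lay well outside the sensitive pair. The endosomal protease gene Ctse read 103, 136 and 280 units, a difference of 0.97 that was called after scaling but not as deposited (1.65). Ctsa, a carboxypeptidase that also protects Glb1 and Neu1 in a shared complex, read 130 and 169 against 94.9 units and was not called, with a difference of -0.46 as deposited and 0.09 after scaling.

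Of 8 glycosidases, 3 rose and 1 fell. Gla, which removes terminal alpha-galactose from glycolipids, read 513 and 931 units in sensitive cells, against 5029 in the resistant line. The sensitive arrays were not close, yet the resistant value was 6.96 times their mean, a difference of 2.77 (SE 0.29, limma adjusted p = 1.28e-05). The beta-galactosidase gene Glb1 rose by 1.20, from 1828 and 1920 to 4377 units (adjusted p = 4.31e-04). The sialidase gene Neu1 rose by 1.29, from 250 and 376 to 824 units (adjusted p = 0.0025), and its second probe read 19.9, 26.4 and 103. Glb1 and Neu1, whose products form the complex with that of Ctsa, thus rose while Ctsa was not called.

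Hexa encodes the alpha subunit of beta-hexosaminidase A, which degrades the ganglioside GM2. It read 4476 and 4607 units on the sensitive arrays, against 266 in resistant cells, 17.1 times lower than their mean, a difference of -3.86 (SE 0.20, limma adjusted p = 6.06e-08). The sensitive arrays agreed closely and the resistant value was far below both. The other glycosidase genes were not called as deposited. Gaa, the acid alpha-glucosidase of glycogen breakdown, read 1624, 2383 and 3086 units, and was called higher after scaling but not as deposited (0.64 as deposited, 1.40 scaled), while its dimmer probe pointed the other way at 73.3 and 102.9 against 17.1 units. Gusb, the beta-glucuronidase, read 6402, 5830 and 3371 units, a difference of -0.85 that shrank to -0.09 after scaling. The mannosidase genes Man2b1 (7904, 7722 and 7440 units) and Manba (1206, 1385 and 1321 units) were near level as deposited.

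Sulfatases and phosphatases gave 1 rise in 4 genes. Arsb, which acts on dermatan and chondroitin sulfate, read 317 and 264 units in sensitive cells, against 728 in the resistant line, a difference of 1.20 (SE 0.26, limma adjusted p = 0.0025). Arsa, which removes sulfate from sulfatide, read 2744, 2595 and 4202 units and was called higher after scaling but not as deposited (0.65 as deposited, 1.41 scaled). The acid phosphatase genes were both lowest on the resistant array without a call. Acp2 read 410 and 386 against 177 units (-0.98, and -0.35 scaled), and Acp5, the tartrate-resistant phosphatase that osteoclasts carry together with Ctsk, read 1654 and 1543 against 1142 units (-0.47, and 0.28 scaled). Ctsk and Acp5 therefore differed in their calls in these cells.

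Among genes of lipid breakdown, 1 of 6 rose, 0 fell on both scales and 1 was called lower as deposited but not after scaling. Smpd1, the acid sphingomyelinase, read 128 and 175 units in sensitive cells, against 464 in the resistant line, 3.06 times their mean (log2 difference 1.36, SE 0.29, limma adjusted p = 0.0026). Asah1, the acid ceramidase that acts after it, read 2812, 4377 and 7796 units. Its difference was 1.14, but only 0.83 from sensitive replicate 2, so it was called after scaling but not as deposited (1.91). Lipa, which frees cholesterol and fatty acids from their esters, read 2127 and 1539 units in sensitive cells, against 470 in the resistant line, a difference of -1.84 as deposited (adjusted p = 7.27e-05) and of -1.13 without a call after scaling. It was not called after quantile normalization (-1.24) or centring (-1.22) either.

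For the remaining 3 genes of this group the resistant reading lay between the sensitive readings as deposited. Psap, the precursor of the saposins that present sphingolipids to their hydrolases, read 8150, 10151 and 9845 units, a difference of 0.11 (SE 0.21, limma adjusted p = 0.685). Npc2, a soluble cholesterol carrier, read 3760, 4752 and 4552 units on its brighter probe. Ppt1, a palmitoyl-protein thioesterase, read 285 and 630 units on the sensitive arrays, with the resistant reading of 359 between them, so that the groups overlapped. None of these 3 was called on either scale, and after scaling their differences were 0.88, 0.87 and 0.48.

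Membrane proteins of the lysosome gave 2 rises and 0 falls among 6 genes. Lamp2, a glycoprotein of the limiting membrane and a receptor in chaperone-mediated autophagy, read 12628 and 12382 units in sensitive cells, against 41742 in the resistant line. The sensitive arrays were almost level and the resistant value was 3.34 times their mean, a rise of 1.74 (SE 0.20, limma adjusted p = 2.73e-05). Lamp1, its close relative, also read highest on the resistant array at 18744, 22981 and 31947 units, but its difference of 0.62 was called after scaling but not as deposited (1.39). Cd63, a tetraspanin of late endosomes and secretory granules, was called higher from 6.21 and 11.9 to 80.9 units (1.15), where both sensitive readings lie near 0 and no fold is given.

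Scarb2, the receptor that carries glucocerebrosidase to the lysosome, read 285, 388 and 499 units and was called after scaling but not as deposited (0.52 as deposited, 1.24 scaled). Its second probe read 194, 251 and 664 units, a difference of 1.40. The sterol transporter gene Npc1 read 614, 609 and 747 units, and the calcium channel gene Mcoln1 read 1507, 1282 and 1212. Neither was called on either scale. Tfeb, the transcription factor gene of the list, read 64.6 and 87.1 units in sensitive cells, against 80.9 in the resistant line. The resistant value lay between the sensitive readings, and the difference was 0.06 (SE 0.28, limma adjusted p = 0.87), or 0.59 without a call after scaling.

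**Figure D3:**
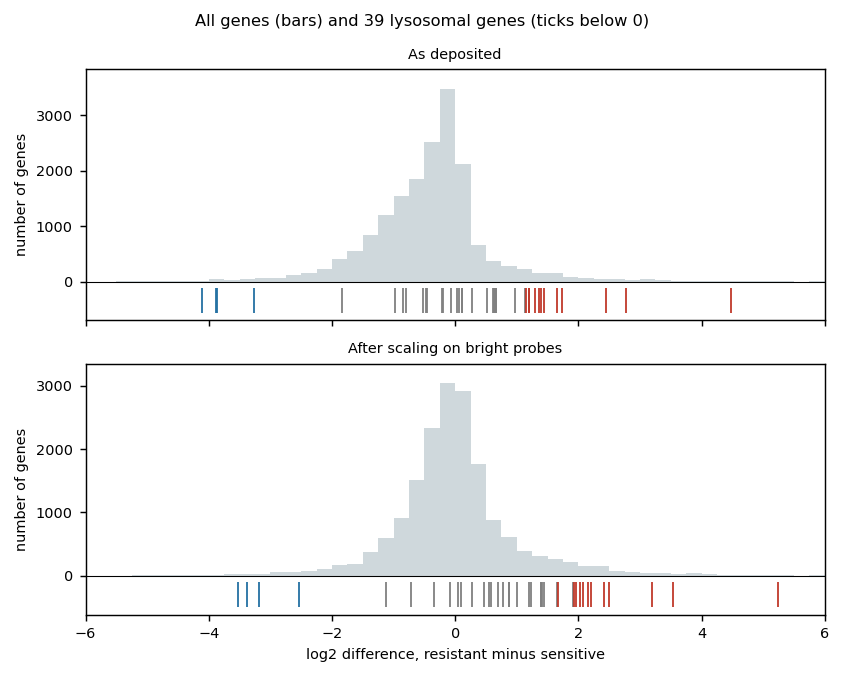
Bars count all 17742 genes by log2 difference, resistant minus sensitive, in bins of 0.25, as deposited (top) and after scaling on bright probes (bottom); ticks under the bars are the 39 lysosomal genes, red for the 12 that rose, blue for the 4 that fell and grey for the rest. The median of the ticks is 0.52 above and 1.20 below, against -0.33 and -0.06 for all genes; 23 genes as deposited and 44 after scaling lie outside the plotted range.

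In all, 15 of 39 members were called on neither scale, 7 were called higher after scaling but not as deposited, and 1, Lipa, was called lower as deposited but not after scaling. The 15 ranged from -0.98 (Acp2) to 0.66 (Ctsc). For 6 of them (Ctsf, Ctsa, Man2b1, Acp5, Ppt1 and Mcoln1) the difference was below 0 as deposited and above 0 after scaling, so no direction is given for them. With centred arrays the 12 rises and 4 falls kept their calls, and after quantile normalization 15 of the 16 did. Centring raised every difference, so it could hardly end a rise. An offset of 100 ended the calls of Neu1, Arsb and Cd63. A floor of 50 units ended 8 of the 12 rises (Ctsb, Ctsz, Ctsd, Gla, Neu1, Arsb, Smpd1 and Cd63) and 0 of the falls. The 7 members called after scaling and not as deposited were also called after centring, which likewise raised every difference. Ctse among them was also called after quantile normalization.

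The promoters of the members were searched for sequence motifs, which the list was not built on. The E-box CACGTG, a palindrome bound by Tfeb and its relatives among other factors, was searched on both strands of RefSeq promoter windows in GRCm38.p6, each reaching from 250 bases before to 50 after the annotated start. Of 39 members, 33 matched the table, and 11 of these (33.3%) held the E-box, against 7.15% of all 32851 windows and 8.09% of 27025 genes. Among other lysosome genes outside the list 20 of 71 matched genes (28.2%) held it, so nothing here sets the members apart from them. The longer form TCACGTG, which contains the E-box, was found in 9 of the 33 members (27.3%), in 28.2% of the other lysosome genes and in 3.77% of all windows. Among the 11 members with the E-box, 3 rose (Ctsd, Gla and Glb1), 1 fell (Lgmn) and 7 were called on 1 scale or neither. Among the 22 without it, 8 rose and 2 fell. Genes with the E-box were thus found among those that rose, those that fell and those without a call. Such matches describe the letters and not the binding of a factor.

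The 250 bases before the start are shown for the E-box genes that rose, for Lgmn, and for Lamp1, which holds 4 copies close to its start; capitals mark CACGTG, and every sequence reads 5′ to 3′ on the strand of its gene, from RefSeq (GRCm38.p6).
Lamp1 (chr8:13158911-13159160, + strand): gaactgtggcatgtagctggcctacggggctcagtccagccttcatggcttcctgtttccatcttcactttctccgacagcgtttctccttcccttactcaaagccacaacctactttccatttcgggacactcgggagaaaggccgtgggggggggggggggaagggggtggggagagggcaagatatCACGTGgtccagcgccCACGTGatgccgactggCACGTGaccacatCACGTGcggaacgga
Ctsd (chr7:142387828-142388077, - strand): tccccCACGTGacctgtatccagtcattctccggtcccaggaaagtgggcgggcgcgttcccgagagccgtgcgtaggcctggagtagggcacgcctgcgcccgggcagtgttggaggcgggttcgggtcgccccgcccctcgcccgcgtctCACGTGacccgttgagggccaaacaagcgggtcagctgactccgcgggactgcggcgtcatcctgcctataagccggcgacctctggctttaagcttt
Gla (chrX:134601006-134601255, - strand): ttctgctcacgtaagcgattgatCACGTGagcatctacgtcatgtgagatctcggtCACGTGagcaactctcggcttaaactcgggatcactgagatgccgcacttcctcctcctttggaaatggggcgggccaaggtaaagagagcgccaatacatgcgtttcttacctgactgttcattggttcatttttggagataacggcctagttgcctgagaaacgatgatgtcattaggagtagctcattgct
Glb1 (chr9:114400828-114401077, + strand): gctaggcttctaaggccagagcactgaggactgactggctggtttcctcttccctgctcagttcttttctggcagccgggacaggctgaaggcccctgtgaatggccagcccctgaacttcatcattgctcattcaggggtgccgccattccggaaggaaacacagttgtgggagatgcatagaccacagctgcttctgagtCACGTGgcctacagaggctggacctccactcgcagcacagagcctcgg
Lgmn (chr12:102439093-102439342, - strand): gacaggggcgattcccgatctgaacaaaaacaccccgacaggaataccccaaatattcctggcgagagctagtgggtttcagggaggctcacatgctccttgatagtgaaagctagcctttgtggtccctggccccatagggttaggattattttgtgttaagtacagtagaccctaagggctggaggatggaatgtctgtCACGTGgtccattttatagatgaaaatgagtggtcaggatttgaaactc
The copies of Lamp1 began 61, 45, 28 and 15 bases before the start. In Glb1 and Lgmn, which moved in opposite directions (1.20 and -4.10), a single E-box began 48 and 49 bases before the start. Lgmn had 2 annotated windows, and the one shown was printed because it alone held the E-box. In Gla the copies lay farther off, at 227 and 194 bases, and in Ctsd at 245 and 98 bases.

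The neighbours Ctsk and Ctss are shown in the same way because they held opposite changes of like size. Capitals mark GAGGAA on either strand (TTCCTC on the other), the purine-rich core bound by PU.1 and other ETS factors, which 28.3% of all windows hold. By gene it was found in 14 of the 33 matched members (42.4%), 25.4% of the other lysosome genes and 31.3% of all genes. It was held by 6 of the 11 matched members that rose, 1 of the 3 that fell and 7 of the 19 called on 1 scale or neither.
Ctsk (chr3:95498960-95499209, + strand): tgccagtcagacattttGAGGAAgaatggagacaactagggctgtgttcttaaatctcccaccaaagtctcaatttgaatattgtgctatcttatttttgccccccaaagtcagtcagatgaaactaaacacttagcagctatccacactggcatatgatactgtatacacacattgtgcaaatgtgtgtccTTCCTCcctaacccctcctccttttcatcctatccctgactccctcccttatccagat
Ctss (chr3:95526536-95526785, + strand): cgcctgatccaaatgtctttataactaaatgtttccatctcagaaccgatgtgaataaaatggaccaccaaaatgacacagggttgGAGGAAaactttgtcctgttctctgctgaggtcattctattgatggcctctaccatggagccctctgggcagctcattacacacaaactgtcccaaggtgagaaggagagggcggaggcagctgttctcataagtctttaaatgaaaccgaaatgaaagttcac
Both windows held the core, 2 copies in Ctsk and 1 in the printed stretch of Ctss, and neither held CACGTG. Spi1, which encodes PU.1, read 634 and 591 units in sensitive cells, against 109 in the resistant line and fell by 2.06 (SE 0.26, limma adjusted p = 5.04e-05). Among the other myeloid markers, Itgam read 1318, 2389 and 443 units and was called lower as deposited but not after scaling (-1.89, and -1.18 scaled). Cebpa, a factor gene of granulocyte development, went the other way with 368, 582 and 961 units (0.98, and 1.72 scaled with a call). The part of these myeloid genes in the falls of Ctss, Lgmn, Hexa and Ctsh was not tested. With 1 RNA pool per array, fewer cells with a transcript and less of it per cell cannot be told apart.

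Beyond the list, 83 of 94 other genes of lysosomal work were measured: further hydrolases and membrane proteins, the proton pump, the sorting of enzymes, regulators at the lysosomal surface and cathepsin inhibitors. Of these, 16 rose (19.3%) and 5 fell (6.02%), with 12 called lower as deposited. Their median difference was -0.06 as deposited and 0.59 after scaling, below that of the members on both scales. The share that rose was above the background of 5.21%, and the share that fell was near that of 8.35%. These shares too were not matched for brightness.

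Sorting genes held the largest share of rises in this second list, with 5 of 12 up (41.7%, against 5.21% of all genes) and 0 down on both scales. Sort1, the sortilin receptor that carries enzymes from the Golgi, read 2921 and 1711 units in sensitive cells, against 17362 in the resistant line (log2 difference 2.93, SE 0.27, limma adjusted p = 4.92e-06). Its second probe moved alike, from 2671 and 1580 to 13988 units. M6pr, the cation-dependent receptor for the mannose 6-phosphate tag, rose from 10133 and 9932 to 27023 units (1.43). Gnptg, a subunit of the enzyme that adds the tag, rose from 33.5 and 76.5 to 590 units (2.64). Its sensitive readings lay below and just above the medians of those arrays (58.4 and 72.5 units), so the size of its rise is rough. Gnptab, which encodes the catalytic part of the same enzyme, read 3520, 2969 and 2599 units and was not called. Igf2r, the larger tag receptor, was called higher from near 0 (7.45 and 5.28 against 65.3 units), and Grn, the precursor of the granulins, rose from 6183 and 8258 to 18684 units (1.38). Vps35, a retromer subunit that returns such receptors to the Golgi, read 8035, 9390 and 2777 units and was called lower as deposited (-1.63) and after quantile normalization (-1.26), but not after scaling on bright probes (-0.87).

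Among 20 further hydrolases and their helpers, 6 rose and 2 fell. The thioesterase gene Ppt2 went from 48.5 and 71.2 to 3582 units, a difference of 5.06 (SE 0.28, limma adjusted p = 7.60e-08), while its relative Ppt1 in the main list was not called. Both sensitive readings of Ppt2 lay below the medians of those arrays (58.4 and 72.5 units), so the size of its rise is rough. Aga, which splits sugar from asparagine, rose by 2.06, and Plbd2 by 1.48. The heparan sulfate enzymes Sgsh and Naglu rose by 1.52 and 1.04, Sgsh from sensitive readings of 19.9 and 23.7 units, also below those medians. Galc was called higher (1.51) from sensitive readings of 8.70 and -1.32 units. Gm2a, the activator protein that hands GM2 to beta-hexosaminidase A, fell by 1.87, from 2503 and 3052 to 720 units, in the same direction as Hexa. The serine carboxypeptidase gene Scpep1 fell by 1.88.

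For the 18 further membrane proteins the counts were 2 up (11.1%) and 1 down (5.56%), against 5.21% and 8.35% of all genes. The sialic acid transporter gene Slc17a5 rose by 1.66 (273 and 266 against 963 units), and Ostm1, a partner of the chloride exchanger Clcn7, rose by 1.54. Cd68, a macrophage relative of the Lamp proteins, fell by 2.00, from 2593 and 3819 to 747 units, while Lamp2 rose. After quantile normalization the difference of Cd68 was -1.42 and its call was lost. Laptm5, a membrane protein of blood cells, read 29708, 30076 and 28582 units and was not called.

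Of 16 measured subunits and accessory proteins of the proton pump, 1 rose (6.25%) and 1 fell (6.25%), shares near the 5.21% and 8.35% of all genes. As deposited 4 were called lower, with a median of -0.82 as deposited and -0.07 after scaling. Atp6v0e rose from 8139 and 10556 to 24416 units (1.39), and Atp6v1g1 fell from 7797 and 8186 to 2102 (-1.90). Tcirg1, the a3 subunit typical of osteoclasts and macrophages, read 6497, 8280 and 2055 units and was called lower as deposited (-1.81), after quantile normalization (-1.40) and after centring (-1.19), but not after scaling on bright probes (-1.05).

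Of 14 regulators at the lysosome 2 rose (14.3%) and 1 fell (7.14%), where 5.21% and 8.35% of all genes did. These shares rest on very few genes, and the share that fell was near the background. The risers were Mitf and Tfec, relatives of Tfeb: Mitf read 186 and 204 against 487 units (1.13, SE 0.27, limma adjusted p = 0.0051), and Tfec read 528 and 541 against 1797 units (1.66, adjusted p = 8.89e-05). Tfe3, the fourth member of that family, read 818 and 1058 against 334 units and was called lower as deposited but not after scaling (-1.35, and -0.66 scaled). The family thus held 2 genes that rose, 1 lower on 1 scale and 1, Tfeb, without a call. Rragb, a small GTPase that recruits mTORC1 to the lysosome, fell by 2.31, from 319 and 339 to 26.4 units. Its resistant reading lay near that array's median of 24.9 units and without a background flag may not be above background. The cathepsin inhibitor genes Cstb (0.57), Cst3 (-0.34) and Cst7 (0.69) were not called as deposited, and 2 of them, Cstb and Cst7, were called higher after scaling.

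**Figure D4:**
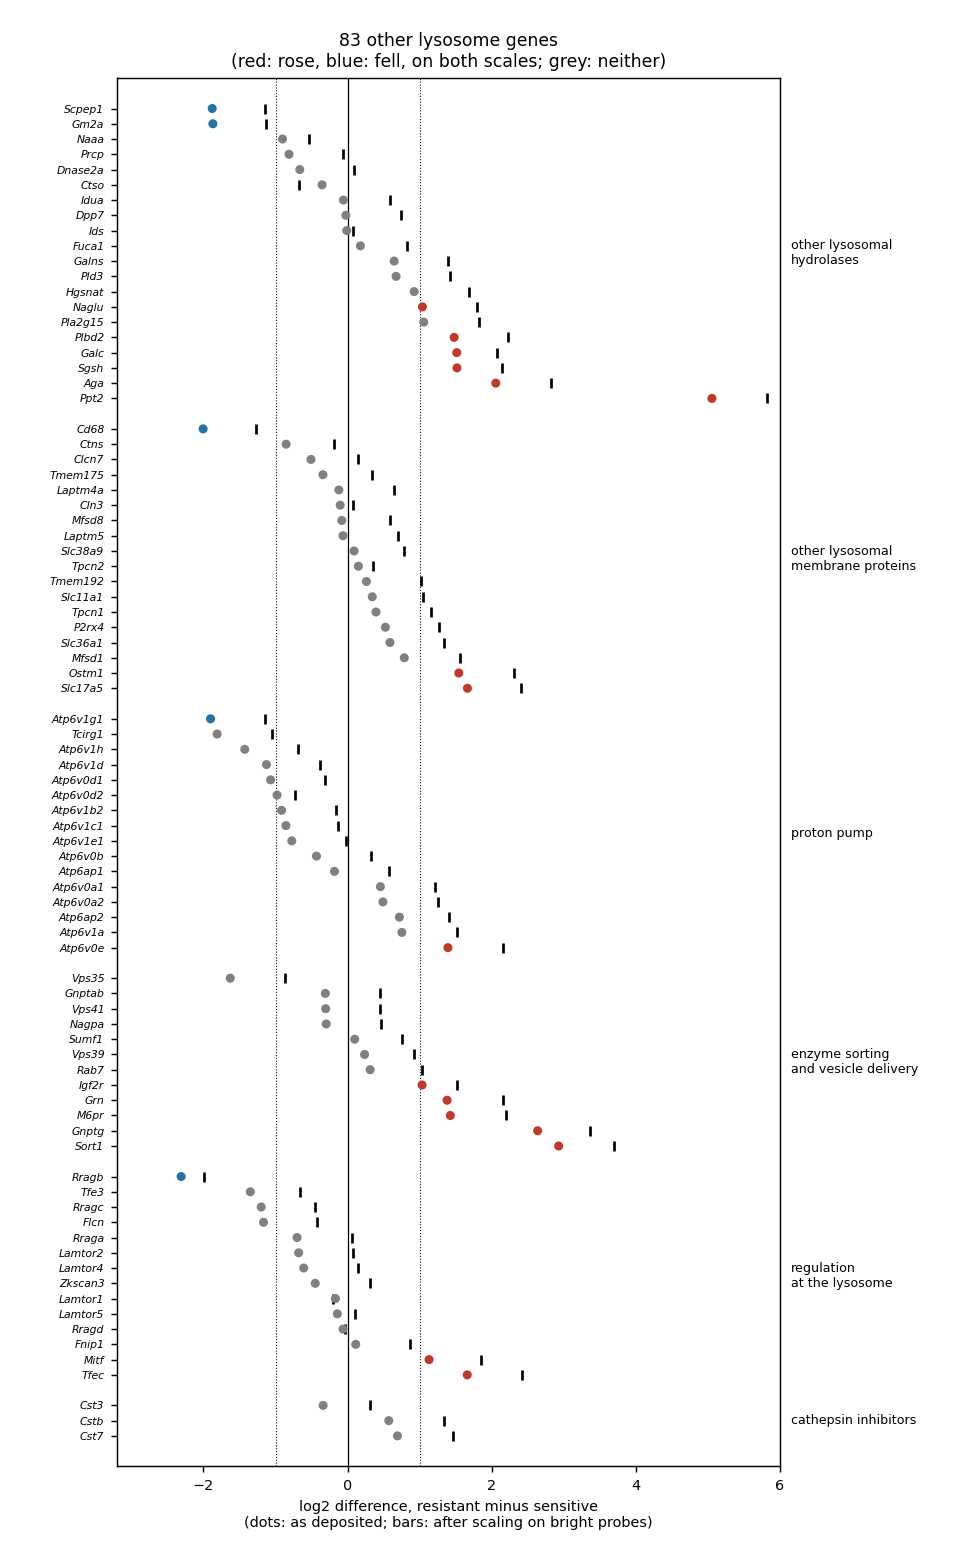
Each row is 1 of 83 other lysosome genes, grouped by role; the x axis is the log2 difference, resistant minus sensitive, with dots as deposited, black ticks after scaling on bright probes, and dotted lines at -1 and 1. Red dots are the 16 genes that rose, led by Ppt2 at 5.06, and blue dots the 5 that fell, led by Rragb at -2.31.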

How the data were processed

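Per the labels' protocols, amplified RNA carrying amino-allyl groups was dyed with Cy5, and each sample was read in 1 colour. The authors deposited 1 table of intensity per probe for 3 arrays: sensitive replicates 1 and 2 and 1 resistant array, grouped by title. Intensities are linear and reach below 0, and at least 99.99% of values under 400 units are whole multiples of 1 step per array (1.24, 1.32 and 1.56 units, within 0.02 steps). The sources used here name no scanner, image software or scaling, and no background or saturation flags were used.

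Of 26423 probes, 20377 had 1 platform symbol, 6046 none and 0 several. Symbols were matched to GRCm38.p6 names (18213 current, 2126 older, 38 older names shared by several genes). The brightest probe stood for each of 17742 genes. log2(intensity + 50) was fitted with limma 3.58.1 in R 4.3.3 (lmFit, eBayes with a trend; 1 residual degree of freedom, prior 11.0). For the scaled fit each array was multiplied by 1 factor that set the median ratio of probes of at least 500 units to the sensitive mean. The fit was tested on simulated data with independent noise of the fitted spread on every array and no shift between arrays. That simulation cannot test the shift of the resistant array or the use of a single resistant array. Promoter motifs, counts and figures used pandas 2.3.3, matplotlib 3.10.9 and numpy 2.4.6 under Python 3.11.15.

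Members and lists were chosen with earlier results of these data known. Members called on either scale were named with all values, as were Lamp1, Lamp2, Cd63, Ctsb, Ctsd, Ctsl, Ctss, Psap and Tfeb; of the other lysosome genes, those called on both scales, at most 6 per role by the smaller difference from the sensitive arrays. Naglu and Galc, which that limit leaves out, Gnptab, Vps35, Tfe3, Tcirg1, Laptm5, the cathepsin inhibitors and the remaining members were added after their values were seen, to complete a pathway. Alternatives were quantile normalization, centring, offsets of 16 and 100, a floor of 50 units, leaving out the dimmest 25% of genes and averaged probes. An untrended and a robust eBayes and sizes of 0.6 and 2 were also used. Without 1 or the other sensitive array no fit was run, and the difference from the array left was taken without a test.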

Additional observations from a re-analysis of the deposited data

How the results depend on the processing

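The number of members called higher was 12 as deposited. It was 19 after scaling on bright probes, 20 after centring on the medians, 3 at a size of 2 and 4 with a floor of 50 units, where the prior degrees of freedom were 1.18. Members called lower numbered 5, and 8 at a size of 0.6. The median difference of the members was 0.52, and it was 1.20 after scaling on bright probes, 0.88 after quantile normalization and 1.14 after centring. Other lysosome genes called higher numbered 16, with 29 after scaling, 26 after centring and 3 at a size of 2. Those called lower numbered 12, with 5 after scaling, 6 after quantile normalization, 6 after centring, 21 at a size of 0.6 and 1 at a size of 2. Over all genes 928 were called higher, with 1749 after scaling, 1697 after centring and 354 at a size of 2. Over all genes 3284 were called lower, with 1500 after scaling, 1219 after quantile normalization, 1273 after centring, 5511 at a size of 0.6 and 734 at a size of 2. The cause of these shifts beyond the construction of each setting was not tested.

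The sign of 6 uncalled members turned under all 3 scalings. Scaled on bright probes, quantile normalized and centred, the differences were 0.050, 0.018 and 0.098 for Ctsf, 0.093, 0.067 and 0.17 for Ctsa, and 0.70, 0.13 and 0.55 for Man2b1. They were 0.28, 0.10 and 0.15 for Acp5, 0.48, 0.39 and 0.40 for Ppt1, and 0.56, 0.39 and 0.43 for Mcoln1. Without a sensitive replicate, which leaves a value with no test, the differences ranged from -0.066 to 0.13 for Manba, -0.062 to 0.27 for Npc2, -0.044 to 0.27 for Psap, -0.73 to 0.29 for Ppt1 and -0.066 to 0.19 for Tfeb. Of the 16 members called on both scales, 15 kept their calls after quantile normalization, 13 with an offset of 100 (Neu1, Arsb and Cd63 lost), 8 with the floor and 7 at a size of 2. No paired analysis was possible because the resistant group holds 1 array, so the groups share fewer than 2 replicate numbers. Probes near 0, such as those of Cd63, Ctsw, Galc and Igf2r, give only a rough size.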
